A study of Homo sapiens with 12 samples.

Results

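The 8 genes described here, grouped as epiblast and neural-bias genes of H1, were followed through blood differentiation of H1 human embryonic stem cells. They were OTX2, ZIC2, SOX3, SOX11, FOXD3, PAX6, VSNL1 and USP44. They were picked by symbol, with earlier results of these data known, from a table of 56593 distinct symbols. All 8 were found, each on 1 line. The 12 libraries came from 4 populations with 3 libraries each. Undifferentiated H1 cells were the start. The other populations were sorted from H1 cultures in Custom mTeSR1 medium. APLNR+ mesoderm cells were taken at day 2, after induction with activin A and BMP4. CD31+CD34+ hemogenic endothelial progenitors (HEPs) at day 5 and CD43+ hematopoietic progenitor cells (HPCs) at day 8 had then been kept in VEGF and bFGF. All libraries come from this 1 line and the labels do not say whether the replicates were separate cultures.

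The epiblast is the layer of the early embryo from which all germ layers arise, and human embryonic stem cells in culture resemble it. Its cells hold factors that are used again in the neural plate, such as OTX2, ZIC2 and SOX3, and cells that receive no mesoderm-inducing signal tend toward the neural fate. OTX2 is a homeodomain factor of the epiblast and of anterior tissues, ZIC2 a zinc finger factor of the epiblast and neural plate, and FOXD3 a forkhead factor of pluripotent cells and neural crest. SOX3 is a SOXB1 factor and close relative of SOX2, SOX11 a SOXC factor of neural progenitors, and PAX6 a paired-box factor that marks human neuroectoderm from its onset. VSNL1 encodes visinin-like protein, a neuronal calcium sensor, and USP44 a deubiquitinase that acts on histone H2B and in the mitotic checkpoint.

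Levels are given as FPKM, in which fragment numbers are divided by the length of the transcript and by the reads mapped in that library, so levels of different genes can be set side by side per length. The depth of the libraries is unknown, and the number of libraries limits the precision. Summed FPKM ranged from 567793 to 1564449 per library, and genes of small RNAs took from 10.4% to 66.2% of it. The 4 pluripotency markers POU5F1, NANOG, SOX2 and LIN28A were present in H1, with summed levels from 1484 to 1554 FPKM. The 3 sorted populations held the markers of their type, with 5 of 5 mesoderm markers at 1 FPKM in APLNR+ cells, 4 of 4 endothelial markers in CD31+CD34+ cells and 3 of 4 blood markers in CD43+ cells. The exception was PTPRC, the pan-leukocyte antigen, at 0.0695, 0.521 and 0 FPKM in CD43+ cells. The populations shared markers. In CD31+CD34+ cells 5 of 5 mesoderm and 3 of 4 blood markers also reached 1 FPKM, and in CD43+ cells 4 of 4 endothelial markers did. Of the pluripotency markers 3 of 4 did so in each sorted population.

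The name given to the group held in part. By mean level 5 of the 8 genes were highest in H1, and 3 (OTX2, SOX11 and PAX6) were highest in APLNR+ cells. A mean of 1 FPKM was reached by 7 of the 8 in H1, by 4 at day 2, by 2 at day 5 and by 0 at day 8. Since their levels in H1 helped to choose these genes, comparisons with H1 are given as a description, without a test. In bulk samples, fewer cells of a type and less RNA per cell cannot be told apart.

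**Figure D1:**
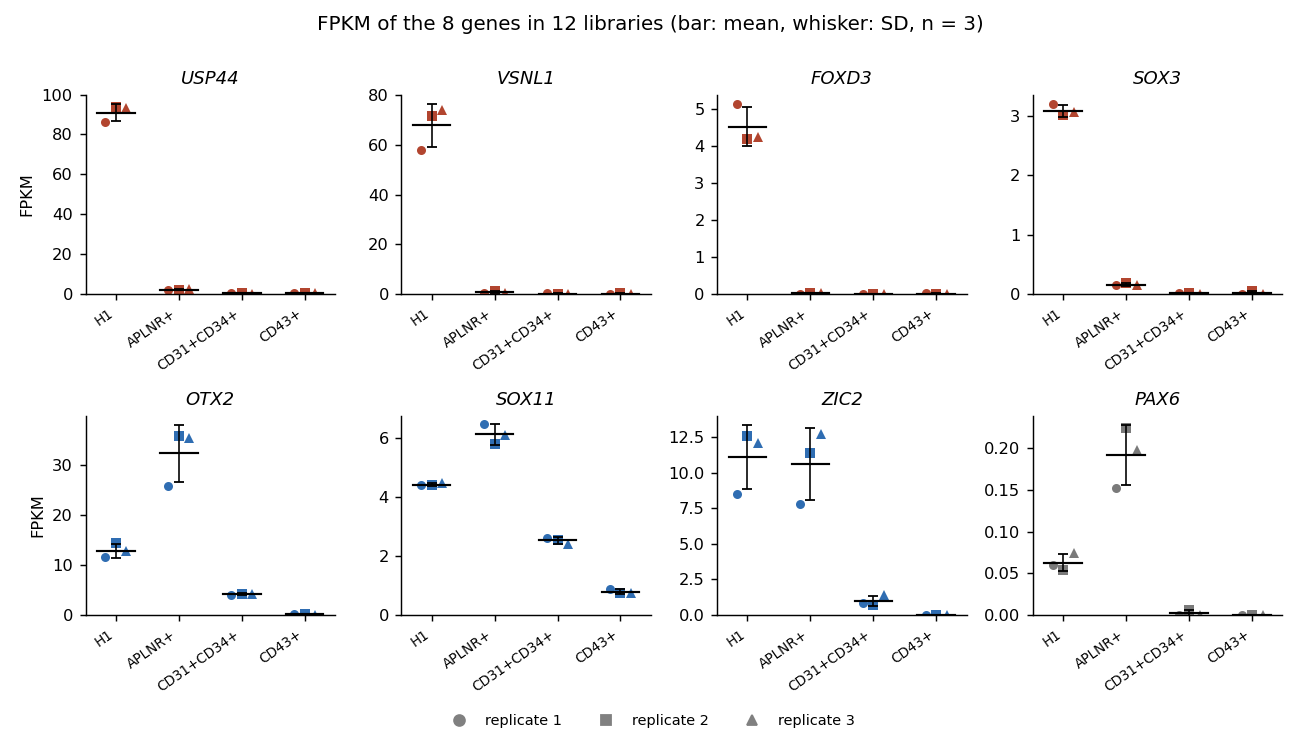
Each panel gives the FPKM of a gene (linear axis from 0, own scale) in the 4 populations, with the 3 libraries as symbols, the mean as a bar and the SD as whiskers. USP44, VSNL1, FOXD3 and SOX3 (red) are near 0 outside H1, OTX2, SOX11 and ZIC2 (blue) are at a like or higher level in APLNR+ cells, and PAX6 (grey) stays below 0.25 FPKM.

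USP44, VSNL1, FOXD3 and SOX3 had nearly all of their signal in undifferentiated H1 cells. USP44 was the highest of the 8 genes, with 86.1, 93.6 and 93.3 FPKM in the H1 libraries, rank 730 of 14840 genes tested by H1 level. In APLNR+ cells it had 1.84, 2.07 and 2.56 FPKM, 2.37% of the H1 mean. The H1 libraries lay far above all others, and those of CD31+CD34+ cells (0.496, 0.465 and 0.208 FPKM) overlapped those of CD43+ cells (0.541, 0.287 and 0.336 FPKM). VSNL1, at 58.1, 71.4 and 74.1 FPKM in the H1 libraries, took a like course. The APLNR+ libraries held 0.468, 1.32 and 0.432 FPKM, 1.09% of the H1 mean. The libraries of CD31+CD34+ cells (0.0366 to 0.214 FPKM) and CD43+ cells (0.124 to 0.262 FPKM) overlapped for VSNL1 as well. Of all genes tested, the difference between H1 and APLNR+ cells on the log2(FPKM + 1) scale was the eighth lowest for VSNL1 (-5.33) and the eleventh lowest for USP44 (-4.87).

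FOXD3 and SOX3 were far lower in H1 than this pair. H1 libraries held 5.14, 4.19 and 4.25 FPKM of FOXD3, and at day 2 its level was 0.00818, 0.0159 and 0.0297 FPKM. Its mean at day 2 was 0.395% of that in H1, the lowest share among the 8 genes. In the later populations FOXD3 was listed at 0 in 4 of the 6 libraries and reached 0.0163 FPKM at most. SOX3 began at 3.2, 3.01 and 3.06 FPKM, stood at 0.152, 0.181 and 0.145 FPKM at day 2 and reached at most 0.0571 FPKM in the later populations. Its share at day 2, 5.15% of the H1 mean, was the highest of the 4 genes. The 3 H1 libraries lay above the 3 APLNR+ libraries for each of these genes, while CD31+CD34+ and CD43+ libraries overlapped.

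The other 3 genes of appreciable level were kept in mesoderm. The H1 libraries gave 11.6, 14.4 and 12.8 FPKM of OTX2, whereas the APLNR+ libraries gave 25.8, 35.9 and 35.4 FPKM, with no overlap, a mean 2.5 times that of H1. It then stood at 4.01, 4.29 and 4.25 FPKM in CD31+CD34+ cells and at 0.144, 0.137 and 0.0368 FPKM in CD43+ cells. SOX11 levels were 4.38, 4.4 and 4.46 FPKM before induction and 6.46, 5.77 and 6.1 FPKM at day 2, 1.38 times the H1 mean, again without overlap. Its later levels were 2.62, 2.55 and 2.39 FPKM in CD31+CD34+ cells and 0.872, 0.754 and 0.743 FPKM in CD43+ cells. At 17.9% of its H1 mean, SOX11 kept the largest share of the 8 genes at day 8.

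ZIC2 stayed level across the first step. Its level was 8.49, 12.6 and 12.1 FPKM before induction and 7.78, 11.4 and 12.7 FPKM at day 2, so that the libraries overlapped and the mean was 96.2% of that in H1. Replicate 1 was the lowest library in both populations, and the ratio of APLNR+ to H1 was 0.916 between the replicate 1 libraries, 0.904 between replicates 2 and 1.05 between replicates 3. The log2 change of ZIC2 was -0.06 with and without a replicate block, and leaving out a library moved it between -0.22 (without H1 replicate 1) and 0.13 (without APLNR+ replicate 1). ZIC2 then had 0.843, 0.697 and 1.4 FPKM in CD31+CD34+ cells and 0.00551, 0.00785 and 0 FPKM in CD43+ cells. For OTX2, too, replicate 1 was the lowest library of H1 and of APLNR+ cells, and its ratio of APLNR+ to H1 was 2.23, 2.49 and 2.76 in replicates 1 to 3.

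PAX6 was at or near 0 in every population. The H1 libraries had 0.0604, 0.0545 and 0.074 FPKM, and those of day 2 had 0.153, 0.224 and 0.198 FPKM. Of the 6 later libraries, 5 were listed at 0 and CD31+CD34+ replicate 2 at 0.006 FPKM. The APLNR+ libraries lay above the H1 libraries, but at these levels PAX6 did not reach 1 FPKM in any library, did not pass the filter on low values and was not tested.

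**Figure D2:**
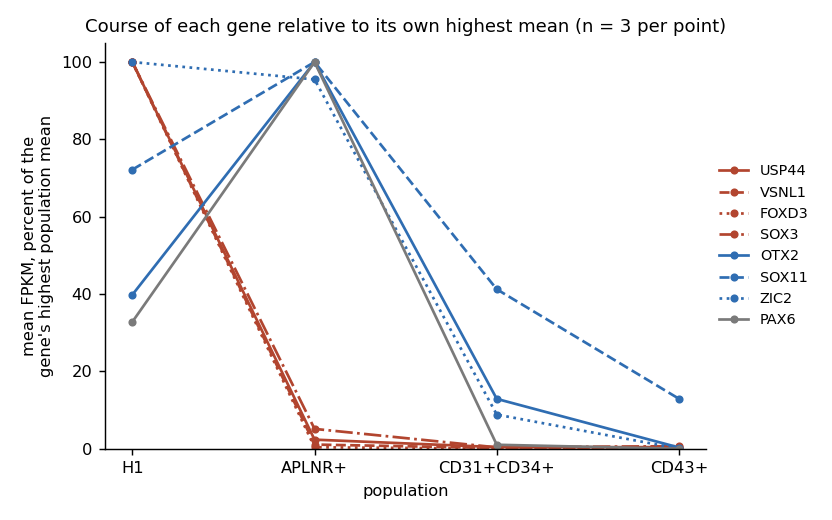
The mean FPKM of each gene (n = 3 libraries per point) is drawn as a percentage of its own highest population mean, from H1 to CD43+ cells. The red lines drop to 5.15% or less at APLNR+ cells, whereas ZIC2 is at 96.2% of its H1 mean there and OTX2, SOX11 and PAX6 have their highest mean.

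The promoters of 4 genes are shown because they stand for these courses, FOXD3 and SOX3 for low levels at day 2 and OTX2 and ZIC2 for levels kept at day 2. Sequences are from RefSeq (GRCh38.p14) and give the 250 bases before the annotated start, 5′ to 3′ on the strand of the gene. Capitals mark matches, on either strand, to the octamer ATGCAAAT (bound by POU5F1), the SOX motif CATTGTT, the OTX motif TAATCC, the CRE TGACGTCA, the CCAAT box CCAAT, the TATA box TATAAA, the GC box GGGCGG and the E-box CACGTG. The table held entries for 6 of the 8 genes, and for SOX11 and USP44 no promoter is shown. OTX2 has 2 entries, of which the first is printed.
FOXD3, chr1:63322317-63322566, plus strand: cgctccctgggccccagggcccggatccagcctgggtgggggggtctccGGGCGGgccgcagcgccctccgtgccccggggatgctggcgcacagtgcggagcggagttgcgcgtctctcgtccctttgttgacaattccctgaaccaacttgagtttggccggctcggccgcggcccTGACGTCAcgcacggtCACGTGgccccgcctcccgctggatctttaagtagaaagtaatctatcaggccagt
SOX3, chrX:140505070-140505319, minus strand: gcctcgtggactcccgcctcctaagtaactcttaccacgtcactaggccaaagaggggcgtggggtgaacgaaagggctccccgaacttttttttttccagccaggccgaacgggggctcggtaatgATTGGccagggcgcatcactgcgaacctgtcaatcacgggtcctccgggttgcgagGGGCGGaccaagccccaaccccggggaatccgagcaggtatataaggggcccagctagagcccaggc
OTX2, chr14:56810480-56810729, minus strand: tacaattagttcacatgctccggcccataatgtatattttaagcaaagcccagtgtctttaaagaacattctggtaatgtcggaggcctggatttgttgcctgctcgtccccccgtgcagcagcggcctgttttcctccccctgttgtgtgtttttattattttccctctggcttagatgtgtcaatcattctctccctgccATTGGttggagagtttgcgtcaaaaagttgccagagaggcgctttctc
ZIC2, chr13:99981534-99981783, plus strand: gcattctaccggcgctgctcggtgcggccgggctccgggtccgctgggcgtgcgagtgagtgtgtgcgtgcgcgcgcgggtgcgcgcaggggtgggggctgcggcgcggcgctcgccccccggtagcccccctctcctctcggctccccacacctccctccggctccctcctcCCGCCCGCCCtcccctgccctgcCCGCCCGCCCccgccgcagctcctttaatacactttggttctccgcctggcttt

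CpG content varied among the 4 windows. ZIC2 had 31 CpG and FOXD3 24 CpG in the 250 bases, SOX3 17 and OTX2 7, against a median of 11 over 35116 promoter entries. The CRE of FOXD3 lay 72 bases before the start and was matched in 1.65% of all promoters, and its E-box, 56 bases before the start, in 6.34%. A CRE was also matched in the first of the 9 PAX6 entries, 76 bases before that start. The GC box, held by 42.6% of promoters, was matched in 3 of the 4 windows shown, and in ZIC2 4 times in overlapping pairs. The CCAAT box, held by 32% of promoters, was matched in those of SOX3 and OTX2. The exact letters TATAAA, held by 10.7%, were matched in 0 of these 4 windows. The SOX3 window holds the near match TATATAAG close to the start, which was not counted. In the first of 2 VSNL1 entries the letters were matched as TTTATA, on the opposite strand, 119 bases before the start. The octamer (1.63% of promoters) and the OTX motif (5.62%) were matched in 0 of the 16 entries of the 6 genes, and the SOX motif (2.87%) in 1 entry, of PAX6. These matches describe letters in these windows alone.

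The steps after day 2 were tested, since they do not involve H1. The 8 genes were still chosen with earlier results of these data known. Their p-values at these steps are therefore a description and no support for a direction. limma was fitted to log2(FPKM + 1) of the 14840 genes that reached 1 FPKM in at least 3 libraries, with p adjusted over all of them, and calls needed both a 2-fold change and an adjusted p below 0.05. Of the 8 genes 7 passed this filter, USP44 with its H1 and APLNR+ libraries alone. FOXD3, SOX3 and VSNL1 passed it only with the H1 libraries, so their later steps are given as values without a test and the counts over the 7 are no support for a direction. From H1 to APLNR+ cells 4 of them met the criteria as lowered (USP44, VSNL1, FOXD3 and SOX3), against 7.62% of all genes, and 1 as raised (OTX2), against 8.3%. From H1 to CD43+ cells all 7 met them as lowered, against 22.5%. H1 took part in choosing these genes, so nothing is read from these counts.

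From APLNR+ to CD31+CD34+ cells 4 of the 7 genes fell, against 17.1% of all genes tested, and 0 rose, against 12.5%. The mean of OTX2 was 7.75 times higher in APLNR+ than in CD31+CD34+ cells (log2 change -2.67 ± 0.13 SE, limma adjusted p 4.19e-09). ZIC2 fell 10.8 times (log2 change -2.54 ± 0.19, adjusted p 1.71e-07), and USP44, already low, 5.53 times (-1.18 ± 0.12, 2.74e-06). SOX11 fell 2.43 times, close to the 2-fold limit on the log2(FPKM + 1) scale (-1.01 ± 0.08, 3.63e-07). It was not called with quantile normalization (-0.85), without APLNR+ replicate 1 (-0.98), without CD31+CD34+ replicate 3 (-0.99) or in replicates 2 and 3 alone. VSNL1 had a log2 change of -0.58 and SOX3 of -0.20, both from means under 1 FPKM, where the added 1 shrinks a change, and with 0.1 added these values were -1.74 and -1.22. APLNR+ replicate 2 held the highest VSNL1 level at day 2, 1.32 FPKM, and the change was -0.35 without it.

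From CD31+CD34+ to CD43+ cells 1 of the 7 genes fell, OTX2, against 8.79% of all genes, and 0 rose, against 5.58%. OTX2 was 39.5 times lower in CD43+ cells (log2 change -2.23 ± 0.13 SE, limma adjusted p 3.44e-08). That fold is imprecise, as it rests on a mean of 0.106 FPKM in CD43+ cells. The ratio of CD43+ to CD31+CD34+ was 0.0359, 0.0319 and 0.00866 in replicates 1 to 3. SOX11 and ZIC2 stopped just short of the 2-fold limit, at -0.98 ± 0.08 (adjusted p 1e-06) and -0.96 ± 0.19 (adjusted p 0.00101), although their libraries did not overlap. The FPKM of SOX11 was 3.19 times lower in CD43+ cells, and no fold is given for ZIC2, which was near or at 0 there. With 0.1 added the changes were -1.56 and -3.32 and both were called. Leaving out certain libraries also sufficed. SOX11 was called without CD31+CD34+ replicate 3 or without CD43+ replicate 1 (-1.01), and ZIC2 without CD31+CD34+ replicate 1 (-1.01) or 2 (-1.07). Other omissions weakened the changes, to -0.82 for ZIC2 without CD31+CD34+ replicate 3 and to -0.96 at the least for SOX11. USP44 held 0.39 ± 0.158 and 0.388 ± 0.135 FPKM (SD, n = 3), and its log2 change was 0.00 with a 95% interval from -0.26 to 0.26. FOXD3, SOX3 and VSNL1 lay under 0.27 FPKM in all 6 libraries.

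**Figure D3:**
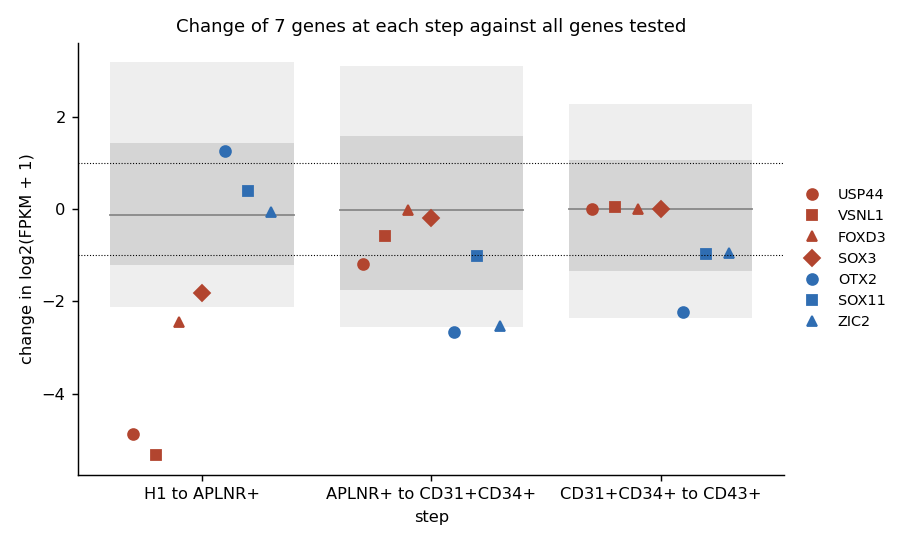
Change in log2(FPKM + 1) of the 7 tested genes at each step, drawn over all 14840 genes (dark band, 5th to 95th percentile, light band, 1st to 99th, grey line, median, dotted lines, the 2-fold limit). USP44 and VSNL1 lie far under the band at the step from H1, where ZIC2 (-0.06), SOX11 (0.39) and OTX2 (1.25) lie within it, and OTX2 and ZIC2 lie at its lower edge at the step to CD31+CD34+ cells.

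The courses were also seen in how the genes varied together. Over the 12 libraries, log2(FPKM + 1) of USP44, VSNL1, FOXD3 and SOX3 correlated with Pearson's r of 0.98 to 1.00 in each pairing, and that of OTX2, SOX11 and ZIC2 of 0.93 to 0.99. Across the 2 sets r ran from 0.31 to 0.71. The points share 4 populations of 3 libraries each, so these values mostly restate the population means. Among 10482 tested genes with a population mean of at least 5 FPKM, the gene most like OTX2 was MME (r 0.995), which encodes the peptidase neprilysin, with means of 11.3, 23.5, 5.12 and 0.678 FPKM in the order of differentiation. NKX1-2, a homeobox gene, was second for OTX2 (r 0.994, means of 6.22, 14, 3.08 and 0.0508 FPKM) and the first for SOX11 (r 0.994). IGFBPL1 was the third for OTX2, and CPZ and ALCAM followed for SOX11.

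The genes most like ZIC2 were SMARCA1, which encodes a chromatin remodeling ATPase, BZW1 and CENPF, a centromere protein, with r from 0.994 to 0.996. They stayed higher than ZIC2 in CD43+ cells, at 3.57, 43.9 and 3.41 FPKM. LNCPRESS1, LINC00599 and CAMKV were closest to SOX3, and LINC00599, GRIA4 and SPIB to VSNL1. B3GALT5-AS1, CHST4 and FAM110C were closest to USP44. FOXD3 was closest to the small nuclear RNA gene RN7SK, then to AC007218.1 and SOX2 (r 0.999 each). RN7SK had a mean of 111873 FPKM in H1 and was listed at 0 in all other populations. An FPKM of 0 can be a failed estimate, which was not tested for RN7SK, so nothing is read from this likeness. Each of the 7 genes had between 134 and 446 genes at r of 0.95 or more, so these are the nearest of many.

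Of 6 relatives of the SOX genes 3 passed the filter. SOX2, the SOXB1 partner of POU5F1 in pluripotent cells, had 47.9, 40.3 and 40.9 FPKM before induction and 0.319, 0.197 and 0.289 FPKM at day 2, or 0.624% of its H1 mean. It passed the filter only with the H1 libraries and is given without a test. SOX3 was at 5.15% at that time. SOX4, a SOXC factor like SOX11, went from 31.2 ± 1.35 to 16 ± 0.875 FPKM (SD, n = 3), while SOX11 was higher at day 2. The change of SOX4 (-0.92 ± 0.09, limma adjusted p 2.98e-06) did not reach the 2-fold limit. SOX12, the third SOXC factor, had 3.34 ± 0.246 FPKM in H1 and 5.08 ± 0.379 FPKM in CD43+ cells and was called at none of the 3 steps. SOX1, SOX14 and SOX21 did not pass the filter.

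ZIC5 lies beside ZIC2 in the genome. ZIC5 was lower at day 2, at 2.38 ± 0.351 against 5.26 ± 0.383 FPKM (SD, n = 3), with a change of -0.89 ± 0.09 (limma adjusted p 4.85e-06) that was under the 2-fold limit (-1.12 and called with 0.1 added). ZIC5 fell at the step to CD31+CD34+ cells, as ZIC2 did, by 1.66 on the log2(FPKM + 1) scale (limma adjusted p 1.34e-08). ZIC1 and ZIC4 were under the filter, as were OTX1 and CRX of the OTX family, FOXD1, FOXD2 and FOXD4 of the FOXD family, and the 8 other PAX genes examined.

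**Figure D4:**
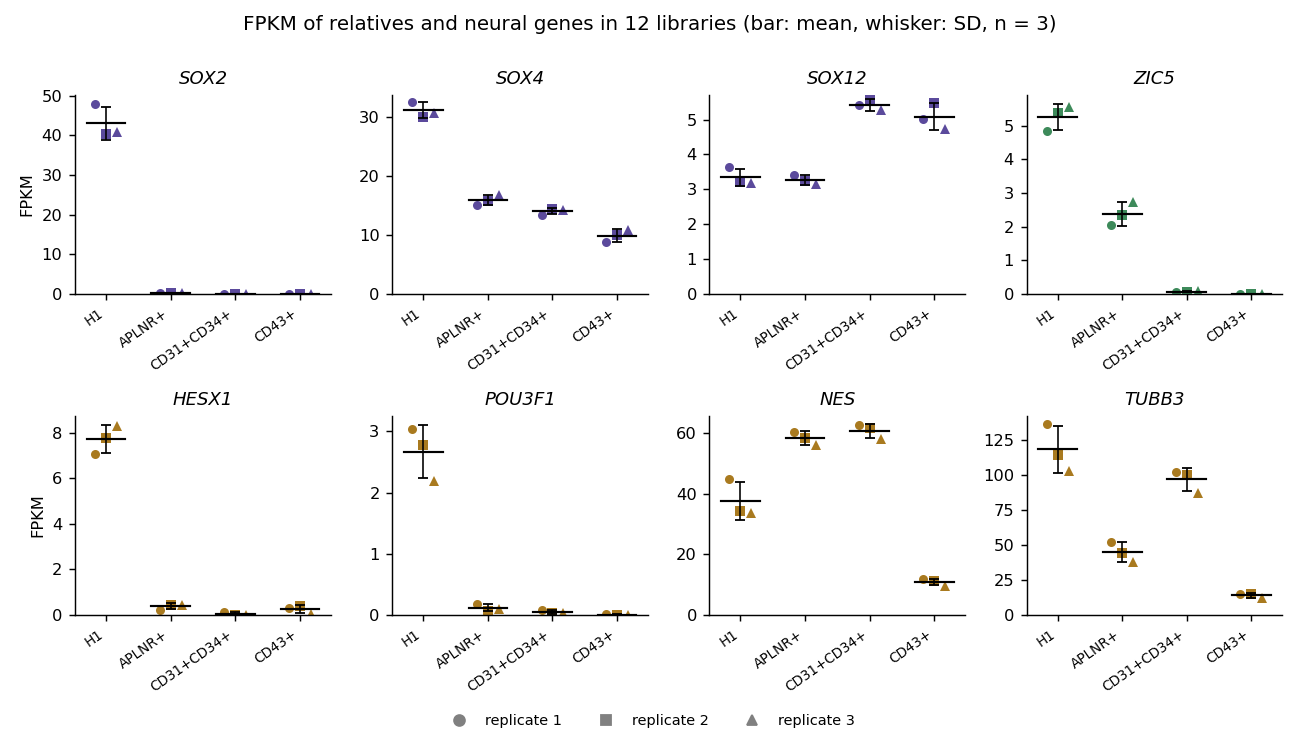
FPKM (linear axis from 0, own scale) of 3 SOX relatives, ZIC5 and 4 neural genes in the 12 libraries, with the mean as a bar and the SD as whiskers. SOX2, HESX1 and POU3F1 are near 0 outside H1, ZIC5 is lower at each later population, and NES stays high until CD31+CD34+ cells.

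Genes related to VSNL1 and USP44 were followed as well. Of 10 further neuronal calcium sensor genes 3 were tested, and 0 were called between H1 and APLNR+ cells. At that step 8.3% of all genes rose and 7.62% fell. HPCAL1, whose protein is a close relative of visinin-like protein, rose from 1.39 ± 0.218 FPKM in APLNR+ to 8.75 ± 0.913 FPKM in CD31+CD34+ cells (SD, n = 3, log2 change 2.03, limma adjusted p 6e-08). NCS1 fell at the last step, from 22.9 ± 0.658 to 8.05 ± 1.17 FPKM (-1.41, adjusted p 5.13e-07). USP49, the nearest relative of USP44, had 2.5, 1.33, 1.11 and 0.996 FPKM on average in the order of differentiation and was called at none of the steps. USP3, another histone deubiquitinase, rose from 4.26 to 18 FPKM at day 2 (1.85, adjusted p 2.21e-09), and USP22 had means from 73.7 to 95.9 FPKM and was not called. CDC20, the checkpoint protein that USP44 deubiquitinates, had means of 63.5 ± 3.23 FPKM before induction and 58.4 ± 4.04 FPKM at day 2 (SD, n = 3, log2 change -0.12, limma adjusted p 0.356). It fell in CD43+ cells (-1.25, adjusted p 9.61e-07). Of the 7 relatives and partners of USP44, all tested, 1 rose at the first step (USP3), against 8.3% of all genes. The 1 that fell, against 7.62%, was BUB3, another checkpoint protein (-1.05). BUB3 was not called with upper-quartile scaling (-0.95), quantile normalization (-0.82) or without small RNA genes (-0.83). At the middle step 0 of the 7 rose, against 12.5% of all genes. MAD2L1 (-1.46), also of the checkpoint, and CETN2 (-1.69), a centrin, fell there, against 17.1%.

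Other epiblast genes also divided at day 2. Some genes, SOX2 and ZIC5 among them, stand in this list and in the neural list. Of 26 such genes 25 were tested. SOX2 passed only with the H1 libraries and counts among those that fell from H1. From H1 to APLNR+ cells 15 fell, against 7.62% of all genes, and 2 rose, against 8.3%, with a median log2 change of -1.22 against -0.12 over all genes tested. This list of pluripotent cell genes was chosen with earlier results of these data known. The shares and medians of this and the later steps, which include SOX2, are therefore no support for a direction. Those that fell included TERF1 (-3.27), the telomere repeat binding factor, PRDM14 (-2.78), a repressor of differentiation genes, and DNMT3B (-2.49), the de novo DNA methyltransferase. LEFTY1 (1.30) and LEFTY2 (1.92), inhibitors of Nodal signaling, rose. Not called were 8, among them TDGF1 (-0.37), a Nodal co-receptor, LIN28B (-0.20) and SALL4 (-0.09). From APLNR+ to CD31+CD34+ cells 13 fell, against 17.1%, and 1 rose, against 12.5%, with a median of -1.24 against -0.01. TDGF1 (-3.81), LEFTY1 (-3.08), NODAL (-2.34) and LEFTY2 (-2.16) were among the 13. In the last step 9 fell, against 8.79%, and 0 rose, against 5.58%, with a median of -0.80 against 0.00. The counts of fallen genes ranged from 13 to 16, 9 to 16 and 8 to 13 over the alternative settings.

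Genes of the neural lineage were mostly at low levels. Of 38 early neural genes 13 passed the filter, and 11 had a mean of at least 1 FPKM in H1. SOX1, a definitive neuroectoderm marker, had 0.0305 FPKM at most in any library, and LHX2, SIX3 and NEUROG2 had H1 means under 0.1 FPKM. Of 8 markers set to detect neural cells (among them SOX1, LHX2, RAX, DCX and STMN2), TUBB3 alone reached 1 FPKM in H1. The summed level of the 8 was 104 to 137 FPKM in H1, 40 to 54.7 FPKM at day 2, 88.2 to 104 FPKM at day 5 and 12.8 to 15.4 FPKM at day 8. Nearly all of it was TUBB3, with means of 118, 44.8, 96.6 and 14 FPKM in that order. From H1 to APLNR+ cells 4 neural genes fell, against 7.62% of all genes, and 2 rose, against 8.3%, with a median log2 change of -0.80 over the 13 against -0.12 over all genes. Of the 13, 4 passed the filter only with the H1 libraries (HESX1, MAP2, POU3F1 and SOX2), so these shares and the median are no support for a direction. HESX1, an anterior homeobox gene, had 7.08, 7.77 and 8.31 FPKM before induction and 0.24, 0.449 and 0.457 FPKM at day 2, and POU3F1, a POU factor of the late epiblast and neural plate, had 3.04, 2.77 and 2.19 FPKM and then 0.187, 0.0702 and 0.103 FPKM. NCAM1 (3.44) and CDH2 (2.32), adhesion molecules that mesoderm also carries, rose. RAX, an eye field gene under the filter, had 1.27, 0.783 and 0.934 FPKM in APLNR+ cells and at most 0.109 FPKM in any other library.

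At the middle step 4 neural genes fell, against 17.1% of all genes, and 1 rose, against 12.5%, with a median of -0.30 against -0.01. At the last step 5 fell, against 8.79%, and 0 rose, against 5.58%, with a median of -0.47 against 0.00. Besides the 4 genes that passed the filter only with the H1 libraries, ELAVL4 passed only with the APLNR+ libraries. STMN2 passed only with the CD31+CD34+ libraries. The shares and medians of these 2 steps are therefore no support for a direction either. NES, the intermediate filament nestin, was not called before the last step, where it fell from 60.8 ± 2.31 to 10.9 ± 1.08 FPKM (SD, n = 3, log2 change -2.39, limma adjusted p 6.73e-09). TUBB3 was the gene that rose at the middle step (1.10), and it was not called with quantile normalization (0.90) or without APLNR+ replicate 3 (0.98). CDH2 fell at that step (-1.21) and was not called without CD31+CD34+ replicate 1 (-0.94). Of 12 neural crest genes 7 were tested. Of these MSX1, MSX2, SNAI2, TFAP2A and TWIST1 rose from H1 to APLNR+ cells (1.26 to 4.50), against 8.3% of all genes, and 0 fell, against 7.62%, with a median of 1.46. The paper on these data counts SNAI2 and TWIST1 among mesenchymal genes and cites a role of MSX2 in mesoderm differentiation. Whether the rise is particular to neural crest was not tested. TFAP2A passed the filter only with the APLNR+ libraries, and the list was chosen with earlier results of these data known. The shares and the median of the neural crest genes are therefore no support for a direction. Of the 3 neural crest markers, SOX10 and TFAP2B stayed under 0.3 FPKM in every population mean, and NGFR had means of 2.19, 0.903, 0.54 and 2.15 FPKM in the order of differentiation. Their summed level was 2.39 to 2.49 FPKM in H1 and 0.982 to 1.27 FPKM at day 2, and its part in the result was not tested. At the middle step MSX1 rose (1.03, but 0.92 without APLNR+ replicate 1 and 0.99 without CD31+CD34+ replicate 1), against 12.5% of all genes. SNAI2 fell there (-1.86), against 17.1%. At the last step MSX1 and MSX2 fell, against 8.79% of all genes, and NGFR rose (1.03), against 5.58%. NGFR was not called without small RNA genes (0.96), without CD31+CD34+ replicate 2 (0.99) or without CD43+ replicate 2 (0.95).

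Genes that lie next to the 8 in the genome were compared after their values had been seen. FOXD3-AS1, which overlaps FOXD3, had means of 78.6 ± 22.8 FPKM before induction and 0.333 ± 0.21 FPKM at day 2 (SD, n = 3), far above FOXD3 itself in H1. The library kit is not stated to keep the strand, so reads of this overlapping pair cannot be told apart with certainty. ZIC5, the neighbor of ZIC2, was at 45.3% of its H1 mean in APLNR+ cells and ZIC2 at 96.2%, a difference that was not tested. PGAM1P5, a pseudogene beside USP44, had 10.3 ± 3.66 FPKM in H1 and at most 0.00712 FPKM on average elsewhere. Pseudogene reads can stem from near-identical copies and are uncertain. METAP2, on the other side of USP44, kept 41.7 FPKM in APLNR+ cells, from 68.2 FPKM in H1. ELP4, which overlaps PAX6, had 13, 6.19, 5.42 and 9.48 FPKM, far above PAX6 in all 4 populations.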

How the data were processed

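Total RNA from 12 samples was sequenced, and each sample's title gave its group and number. The authors deposited FPKM values in 1 table whose 12 columns each matched a title. The submitters' processing notes name BWA, Bowtie, RSEM and hg19, without roles or versions. Neither the annotation nor a scaling between libraries is given in the sources used here. A line of text was left out (1 line), and 345 symbols on several lines were each represented by the line of highest mean. An FPKM of 0 can be a failed estimate, since EEF1A1, a gene that every cell uses, was at 0 in 6 libraries. FPKM are not counts, and count models were not used. The p-values measure the spread between these libraries, which may be technical.

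Values were transformed as log2(FPKM + 1), which understates changes of low genes. Genes at 1 FPKM in at least 3 libraries were kept, and limma 3.58.1 in R 4.3.3 (lmFit, contrasts.fit, eBayes with trend) was fitted to the 4 populations together, with Benjamini-Hochberg adjustment over 14840 genes. The fit was tested on simulated data. The 8 genes and all lists were chosen with earlier results of these data known. The lists (epiblast, neural, neural crest and relatives of each gene) and cell type markers came from general knowledge. All 8 genes are described, list genes are named by size of change or level, and likeness is Pearson's r over 12 libraries, the 3 nearest genes per gene. Gene types came from GENCODE 29 by symbol (54879 symbols). Python 3.11.15, numpy 2.4.6, pandas 2.3.3 and matplotlib 3.10.9 were used.

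Deviations from the population mean correlated between libraries of the same replicate number from 0.19 to 0.39 for CD31+CD34+ and CD43+ cells and from 0.17 to 0.39 for H1 and CD43+ cells. For H1 and APLNR+ cells these correlations were 0.43, 0.23 and -0.02 in replicates 1 to 3. For APLNR+ and CD31+CD34+ cells they were 0.20, 0.03 and 0.04. In each comparison replicate 1 of the earlier population correlated at best negatively with libraries of other numbers in the later one (-0.22 to -0.09). Alternatives were another pseudocount, other filters, scalings and samples, a replicate block, and leaving out each library. Some genes of the lists are counted in them and not reported by name here.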

Additional observations from a re-analysis of the deposited data

How the results depend on the processing

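Over 22 alternative settings the count of the 8 genes that met the criteria from H1 to APLNR+ cells (5) became 3 with a filter on a mean of 5 FPKM, and from H1 to CD43+ cells (7) became 4 with that filter, which removes low genes. At the step to CD43+ cells the count of 1 became 3 with 0.1 as pseudocount, 3 without small RNA genes and 2 with replicates 2 and 3 alone, and lay between 1 and 2 with any 1 library omitted. Over all genes, a pseudocount of 0.1 raised the counts from 2363 to 3632 at the first step and from 2133 to 3605 at the last. The filter on a mean of 5 FPKM gave 1193, 1313 and, for H1 to CD43+ cells (5501), 3309. Directions turned at the last step for changes near 0. SOX3 (0.01) was at -0.01 without CD43+ replicate 2, FOXD3 (0.01) at -0.00 in replicates 2 and 3 alone and without CD43+ replicate 1, and VSNL1 (0.05) at -0.01 without CD31+CD34+ replicate 3. USP44 (0.00) was at -0.02 in replicates 2 and 3 alone, -0.03 without small RNA genes, -0.10 without CD31+CD34+ replicate 3 and -0.08 without CD43+ replicate 1, and leaving out a library gave -0.10 to 0.06. Leaving out small RNA genes moved the median change of all genes from -0.12 to 0.03 at the first step, and ZIC2 from -0.06 to 0.14. With the replicate number as a block, the counts for the 8 genes were 5, 4, 1 and 7 in the order of the comparisons, and no call among them changed. Counts for the lists under these settings were chosen after seeing the data. The unknown depth limits values under 1 FPKM.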
